A study of Vitis vinifera with 36 samples.

Results

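Grape berries of the cultivar Muscat Superior were compared for how their transcripts changed from the onset of veraison to harvest ripeness in the winter and in the summer crop of vines that bear both. The quantity examined was the ripening change of the winter crop (E-L 38 over E-L 35) minus the same change of the summer crop, per gene and on the log2 scale. It used 12 of the 36 libraries of the series, with 3 replicates in each of 4 groups: winter at E-L 38, winter at E-L 35, summer at E-L 38 and summer at E-L 35. E-L stands for the modified Eichhorn-Lorenz scale, on which E-L 35 is the onset of softening and colouring, E-L 36 an intermediate sugar content and E-L 38 harvest ripeness. Genes whose direction of change was opposite in the crops are described in most detail, and there were 656 of them among 19736 tested genes (3.32%).

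The vines were 7 years old in 2014, were grafted on a rootstock that the labels call unknown, and stood under a rain shelter in southern China. Both crops were forced with hydrogen cyanamide, which breaks bud dormancy. For the winter crop the vines were pruned again in August and stripped of leaves by hand, the chemical was applied near the terminal bud, and berries were harvested in early January. For the summer crop the vines were forced in mid-February and the terminal bud was left unsprayed. Each library was made from deseeded whole pericarp (skin and flesh) of 50 pooled berries of a biological replicate. Whether replicates were separate vines is not given in the labels, so p-values measure the spread between these samples, which may be partly technical. The effects of crop, season, harvest date and a possible laboratory batch, on which the labels are silent, cannot be told apart. In whole pericarp, fewer cells of a type and less RNA per cell cannot be told apart.

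As background, veraison starts the ripening phase of the grape berry, a fruit that ripens without a burst of ethylene. Sugars accumulate, acids decline, cell walls loosen, abscisic acid increases and skins of coloured cultivars make anthocyanins. NAC and MYB transcription factors control much of this programme, while light and temperature act on flavonoid, terpenoid and heat shock genes.

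Estimated counts summed to between 8.61 and 14.01 mega-counts per library in the 12 libraries, where 3 counts equalled 0.214 to 0.349 CPM (counts scaled to a common library size, here with TMM factors). Across genes, Pearson's r of log2 CPM between replicates was 0.9784 to 0.9894. The 3 winter libraries at E-L 35 differed by little more than counting noise, where the chi-square of pairs divided by its degrees of freedom was 1.48 to 1.89, compared with 2.42 to 13.57 for pairs of the other 3 groups. Their spread may be technical, and the main counts are also given with them summed into 1 library. Deposited identifiers are not paired with gene names, so single genes are given by identifier and, where possible, by a list of loci. Outside these groups, replicate 1 of summer Victoria at E-L 36 stood apart from its fellows (the same ratio was 51.0 and 53.4, compared with 3.36 for the remaining pair), and so did replicate 1 at E-L 38 (15.45 and 36.75, compared with 10). These libraries enter the shared estimate of spread, and without both of them 847 genes reversed. Replicate 1 of winter Victoria at E-L 38 stood apart as well (18.37 and 18.27, compared with 1.45) and was kept in that alternative. At E-L 35 in Victoria the ratios were 8.99 to 18.7 in summer and 7.87 to 21.61 in winter, and these libraries were also kept. In Muscat Superior at E-L 36, summer replicate 1 also stood apart (52.28 and 28.54, compared with 11.82). Winter replicate 3 at that stage did as well (25.97 and 25.64, compared with 1.48). Over all groups 8 of 36 pairs had a ratio below 2, and the alternative with summed replicates joined all of these. The list loci were recalled from published grape gene families, their identity could not be compared with an annotation, and no sequence or tissue marker could be matched.

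Ripening differed between the crops at 5339 of 19736 tested genes, which is 27.1% (edgeR quasi-likelihood F test, Benjamini-Hochberg adjusted p below 0.05). The difference was higher in winter at 2606 genes (13.2%) and lower at 2733 (13.8%). With near-identical replicates summed, 2594 genes were called. The split between higher and lower moved with the scale: 48.8% of calls were higher on TMM-scaled counts, but 36.9% on log2(FPKM + 1) and 35.6% on log2(FPKM + 0.1), where FPKM is fragments per kilobase of transcript scaled to library size and the median over all genes was -0.08 and -0.12 instead of -0.01. Within the winter crop 9115 genes (46.2%) changed between E-L 35 and E-L 38, 4458 of them upward (22.6%) and 4657 downward (23.6%), and 5331 changed with near-identical replicates summed. Upward genes made up 48.9% of winter calls, but 39.3% on log2(FPKM + 1) and 38.1% on log2(FPKM + 0.1), whose median over all genes was -0.10 against 0.01 on the TMM scale. Within the summer crop 6738 genes (34.1%) changed, 3240 upward (16.4%) and 3498 downward (17.7%).

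Most of the 5339 genes changed in 1 crop without a call in the other. The winter change alone was called at 2646 of them (49.6%) and the summer change alone at 1265 (23.7%). Both changes were called in the same direction at 587 genes (11%), with the larger change in winter at 460 and in summer at 127. Both were called in opposite directions at 656 genes (12.3%), and neither was called at 185 (3.47%). Fitted changes were of opposite sign, whatever the calls, at 3263 genes (61.1%), and at 2607 of these the changes were not both called. The 5339 genes were chosen by the difference of the changes, which favours opposite signs, so this share is a description.

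Of the reversing genes, 338 rose in the winter crop and fell in the summer crop, and 318 fell in winter and rose in summer, which are 1.71% and 1.61% of all tested genes. This split moved with the scale, to 211 rising and 396 falling in winter on log2(FPKM + 1) and to 212 and 381 on log2(FPKM + 0.1). Membership rests on calls in the same 12 libraries, so the ripening changes that follow describe the chosen genes and are no test of them. With near-identical replicates summed, 266 genes reversed, 126 rising and 140 falling in winter, and 265 of them were among the 656. With only these 12 libraries fitted, 1268 did, 616 rising and 652 falling in winter, and 640 of them were among the 656. A stricter class with at least 2-fold change in each crop held 109 genes, 40 rising and 69 falling in winter. At the edge of the class, the 2 genes just inside had a highest adjusted p over the 3 tests of 0.0495 and 0.0493, with log2 changes of -1.16 and -0.42 in winter against 0.75 and 0.55 in summer. The 2 just outside had 0.05 and 0.05003, with 0.60 and -0.56 in winter against -0.22 and 0.69 in summer.

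**Figure D1:**
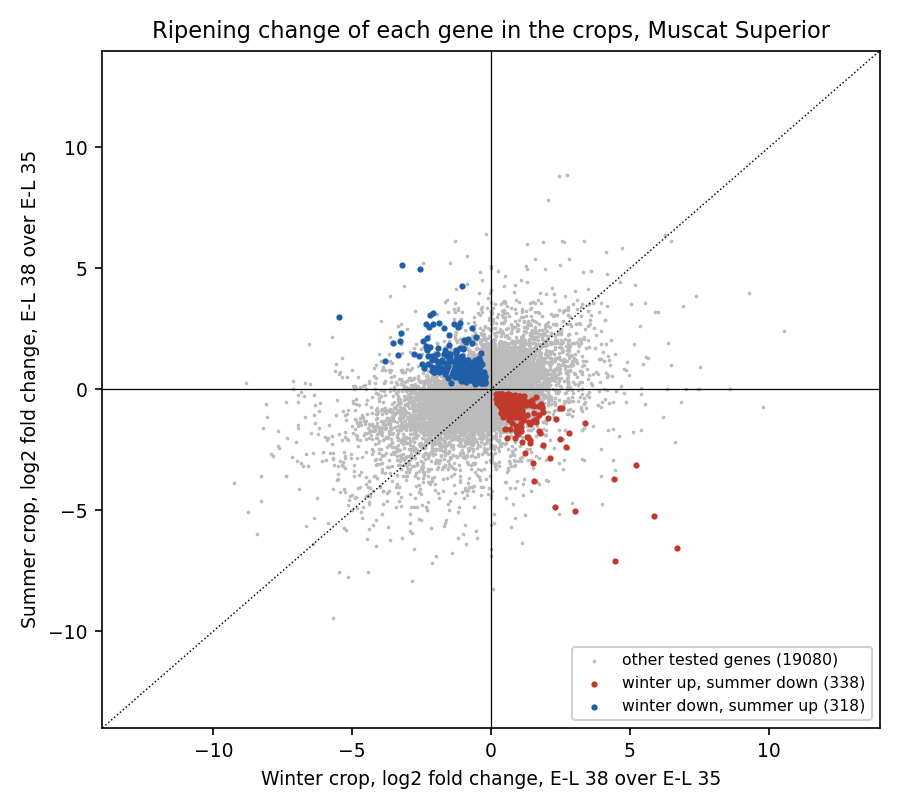
Log2 fold change from E-L 35 to E-L 38 of every tested gene, winter crop on the x axis and summer crop on the y axis, with the 338 genes that rose in winter and fell in summer in red, the 318 with the opposite pattern in blue and the other 19080 in grey. The dotted line marks equal change. Coloured points sit close to the origin in their quadrants, with a few genes far out.

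Changes were mostly below 2-fold in either crop. Genes that rose in winter had a median log2 change of 0.61 in winter and -0.54 in summer, with quartiles of 0.41 and 0.92 in winter and -0.79 and -0.37 in summer. Genes that fell in winter had a median of -0.82 in winter and 0.76 in summer, with quartiles of -1.26 and -0.51 in winter and 0.53 and 1.10 in summer. The medians over all tested genes were 0.01 in winter and 0.00 in summer. The difference between crops had a median of 1.16 in the winter-rising class and -1.64 in the winter-falling class, and its size ranged from 0.47 to 8.45 in the winter-falling class. In the winter-rising class 4 genes had a group with 0 counts in all 3 libraries, and in the winter-falling class 1 did. Placing these at the bound given by 3 counts per library left both medians at 1.16 and -1.64, and without them the winter-rising class reached at most 8.34. The winter change was the larger of the pair at 188 of 338 and at 174 of 318 genes.

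Reversing genes were expressed at higher levels per transcript length than the table as a whole. Their mean FPKM over the 12 libraries had a median of 18.3 in the winter-rising and 16.3 in the winter-falling class, against 6.52 over all tested genes. Genes called in the crop difference that did not reverse were also above the table as a whole. Their medians were 13.7 for a higher and 9.52 for a lower difference. A higher level gives a test more reads, and the part of level in membership was not tested. Median transcript lengths were 2028 and 1859 bases, against 1759 bases over all tested genes. Counts that were whole numbers in 80% of libraries or more, a sign that few reads were shared with similar genes, were found in 86.7% and 72.3% of the classes against 72.5% of all tested genes. Replicates at E-L 38 did not overlap those at E-L 35 in either crop for 327 of 338 and 309 of 318 genes. Non-overlapping changes in opposite directions were found at 1831 of all 19736 tested genes, which include the reversing genes. The reversing genes were chosen by calls in these same libraries, so their separation is a description.

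Reversing genes lay on all 19 chromosomes, at 2.37% to 4.42% of the tested genes of a chromosome. Genes that fell in winter stood next to each other more often: 37 of 318 (11.6%) had a tested neighbour of the same class, against 3.07% of all tested genes that had such a neighbour. For genes that rose in winter this was 14 of 338 (4.14%), against 3.30%. The longest run held 4 consecutive tested loci on chromosome 12, from VIT_212s0035g00330 to VIT_212s0035g00370, with a median difference of -3.28 on the log2 scale. Of those loci VIT_212s0035g00370 had whole-number counts in 100% of libraries, while the other 3 had them in 0%, 0% and 2.78%, so their reads were shared with similar genes, whose part in the run was not tested. A run of 3 on chromosome 14, from VIT_214s0108g01590 to VIT_214s0108g01610, had a median difference of -1.58. The lowest share of whole-number counts among its loci was 61.1%. All members of both runs were called in the same direction in Victoria. Several winter-falling runs of 2 also held a locus with whole-number counts in 0% of libraries. Neighbours that share reads are not independent, and the part of such sharing in the counts of neighbours was not tested.

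Values at E-L 36 did not enter the contrasts that chose the genes, although these libraries share the filter and the estimate of spread. At E-L 36, 251 of the 338 winter-rising genes (74.3%) were higher in winter than in summer berries and 6 were lower, against 21.0% called higher among all tested genes. Of the 318 winter-falling genes, 219 (68.9%) were lower in winter and 18 were higher, against 21.6% called lower among all tested genes. Other genes called in the crop difference of ripening, which did not reverse, had lower shares: 53.4% of 2268 with a higher and 55.5% of 2415 with a lower difference. The reversing classes also had larger differences in ripening, with median sizes of 1.16 and 1.64 against 0.78 and 1.20 for those other genes. Fitted to the 6 libraries of E-L 36 alone, the crop difference was called at 5533 genes instead of 8410 (42.6%). With the genes likewise chosen in a fit of their own 12 libraries alone, the E-L 36 call was along the ripening difference for 329 of 616 winter-rising genes (53.4%), against 16.7% called higher among all genes tested there, and for 341 of 652 winter-falling genes (52.3%), against 15.9% called lower.

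The gap between winter and summer berries widened with stage. In the winter-rising class the median log2 ratio of winter over summer was -0.13 at E-L 35, 0.61 at E-L 36 and 1.05 at E-L 38. In the winter-falling class it was 0.30, -0.66 and -1.28 at these stages, while over all tested genes it was 0.00, -0.02 and 0.00. By calls at the end stages, the crops parted from no called difference at E-L 35 in 222 of 338 and 197 of 318 genes. They crossed, with the lower crop at E-L 35 becoming the higher at E-L 38, in 84 and 85 genes. They came together at E-L 38 in 13 and 24 genes. Among all tested genes winter berries were called higher at 9.33% and lower at 8.25% at E-L 35 (17.6% in all), and higher at 22.7% and lower at 22.4% at E-L 38 (45.1% in all). The class counts at E-L 35 and E-L 38 use the libraries that chose the genes and are descriptions.

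**Figure D2:**
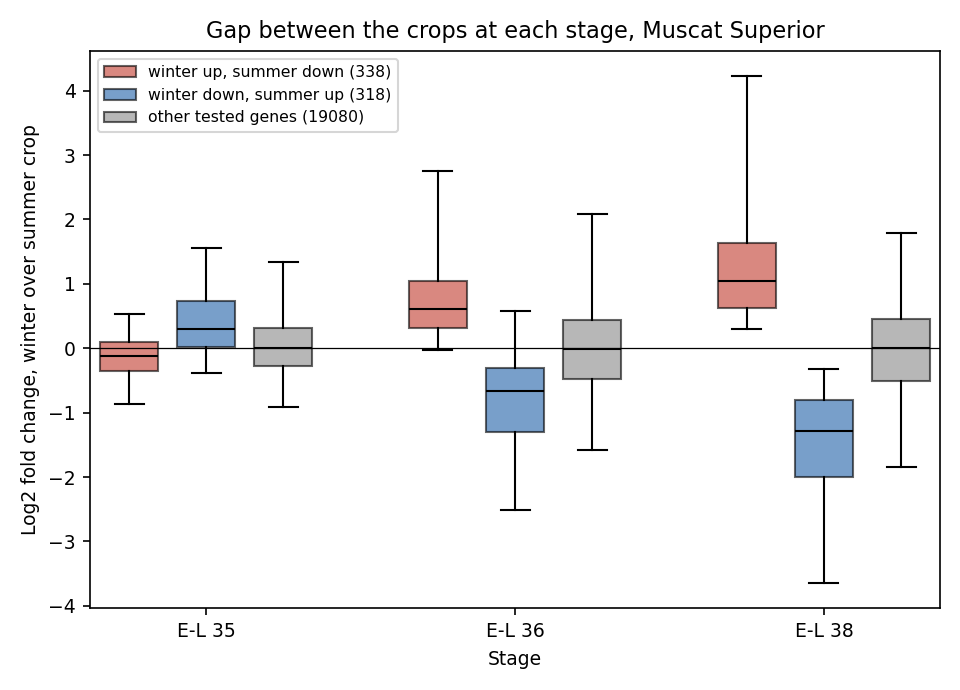
Log2 ratio of winter over summer berries (y axis) at each stage (x axis), for the 338 winter-rising genes in red, the 318 winter-falling genes in blue and the other 19080 tested genes in grey. Boxes give quartiles with the median as a black line, and whiskers run from percentile 5 to percentile 95. The classes lie near 0 at E-L 35, and their medians reach 1.05 and -1.28 at E-L 38.

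Seen along ripening, not every gene passed through an intermediate level at E-L 36. In the winter crop the E-L 36 mean lay between the end stages for 220 of the 338 winter-rising genes (65.1%) and 189 of the 318 winter-falling genes (59.4%), against 71.6% of all genes called in that crop. In the summer crop this was 245 (72.5%) and 201 (63.2%), against 78.6%. Genes that rose in the summer crop had covered a median of 89.8% of their change by E-L 36 and 111 of 318 exceeded their E-L 38 level, while those that fell in summer had covered 65.6%. Over all genes called in the summer crop the median was 69.8%, and 18.4% lay past their E-L 38 level. In winter the medians were 69.0% for rising and 56.2% for falling genes, against 60.7% for all genes called in that crop. How much time passed between stages in each crop was not analysed here.

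Among the listed loci that reversed, VIT_204s0008g05210 belongs to the light and circadian list, whose members relay light signals to flavonoid and other genes. In winter berries it had 9.85, 9.10 and 8.88 CPM at E-L 35, 5.41, 3.91 and 2.10 CPM at E-L 36, and 5.92, 4.25 and 4.94 CPM at E-L 38. In summer berries it had 13.0, 12.8 and 13.3 CPM at E-L 35, 11.2, 24.7 and 15.9 CPM at E-L 36, and 22.8, 20.7 and 23.5 CPM at E-L 38. Winter libraries lay below all summer libraries at every stage, and E-L 38 did not overlap E-L 35 in either crop. The log2 change was -0.89 (SE 0.26) in winter and 0.78 (SE 0.23) in summer. At E-L 36 the locus was lower in winter by the test (log2 ratio -2.17, edgeR adjusted p = 1.61e-07).

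VIT_208s0007g07670 belongs to the list of NAC transcription factors, a family with members that act in fruit ripening. In winter berries it had 45.9, 47.9 and 44.9 CPM at E-L 35, 74.2, 74.3 and 86.5 CPM at E-L 36, and 24.7, 16.8 and 30.2 CPM at E-L 38. In summer berries it had 35.3, 38.5 and 37.7 CPM at E-L 35, 121, 73.1 and 75.3 CPM at E-L 36, and 79.1, 101 and 67.9 CPM at E-L 38. Both crops were high at E-L 36, where they overlapped, and only the winter libraries were low at E-L 38. The log2 change from E-L 35 to E-L 38 was -0.95 (SE 0.26) in winter and 1.15 (SE 0.25) in summer. The E-L 36 difference did not pass the test (log2 ratio -0.20, edgeR adjusted p = 0.558).

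VIT_204s0008g01110, the single locus of the heat shock list, rose in winter and fell in summer. Heat shock genes make chaperones and their regulators, which protect proteins in heat. In winter berries it had 15.6, 16.7 and 16.4 CPM at E-L 35, 5.41, 6.51 and 2.52 CPM at E-L 36, and 25.7, 37.6 and 38.0 CPM at E-L 38. In summer berries it had 8.19, 6.42 and 7.06 CPM at E-L 35, 2.84, 11.3 and 6.22 CPM at E-L 36, and 3.43, 3.59 and 1.37 CPM at E-L 38. The winter crop was above the summer crop at both ends and overlapped it at E-L 36, where the winter level was lowest. The log2 change was 1.06 (SE 0.38) in winter and -1.40 (SE 0.46) in summer. The E-L 36 difference did not pass the test (log2 ratio -0.49, edgeR adjusted p = 0.394).

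**Figure D3:**
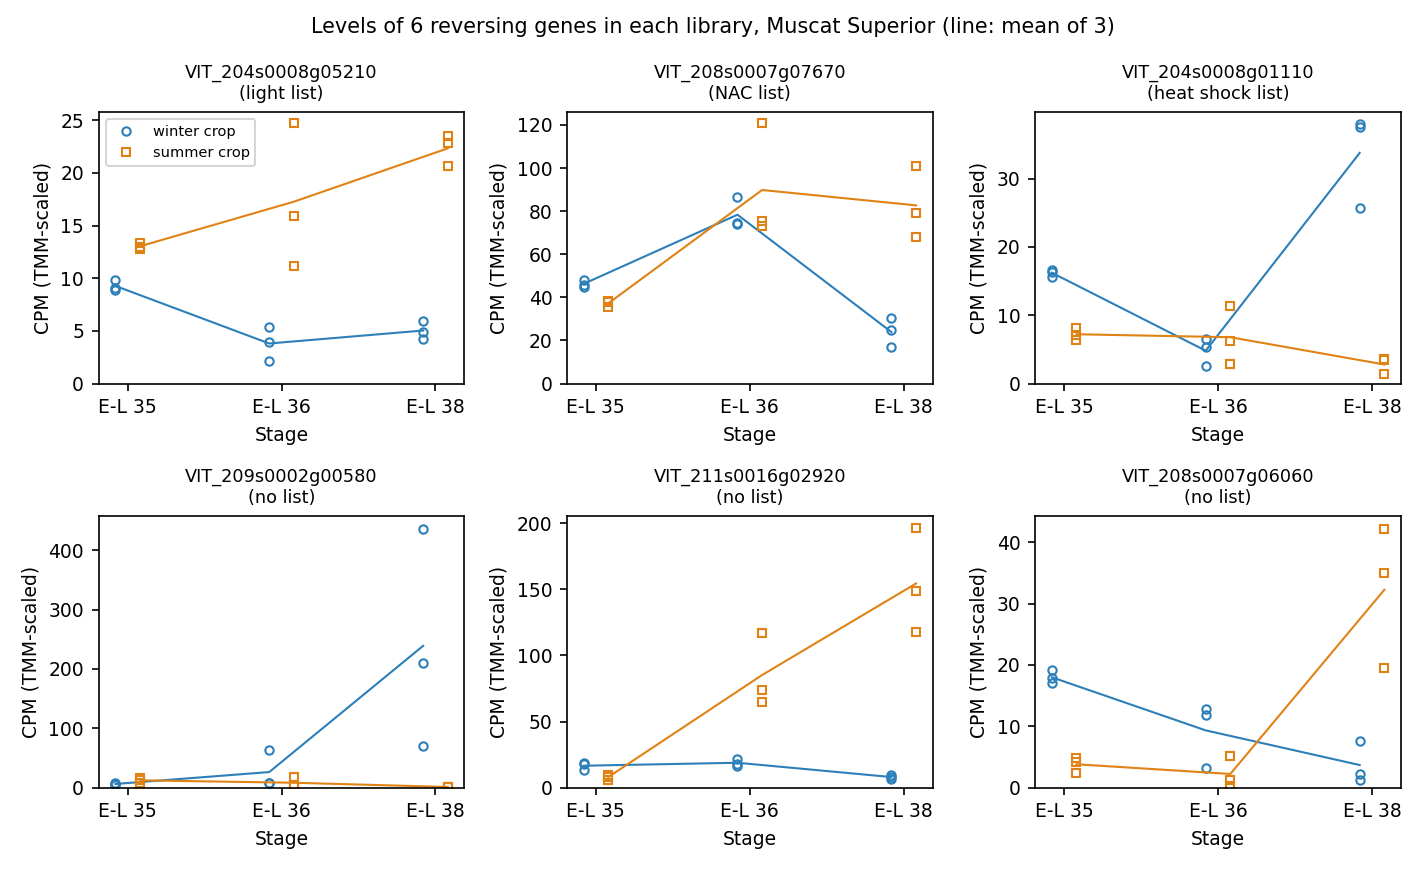
CPM (y axis) of 6 reversing genes at E-L 35, E-L 36 and E-L 38 (x axis), 1 point per library, with winter libraries as blue circles, summer libraries as orange squares and lines through the means of 3. The crops do not overlap at E-L 38 in any of the 6 panels, and their E-L 36 libraries overlap in all panels except those of VIT_204s0008g05210 and VIT_211s0016g02920.

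Of the largest reversals among genes with separated replicates and a highest group mean of at least 10 CPM, 2 in each direction are described, and all 4 lack an annotation in the sources used here. VIT_209s0002g00580 in winter berries had 7.59, 6.58 and 5.27 CPM at E-L 35, 7.80, 8.51 and 63.3 CPM at E-L 36, and 70.7, 436 and 210 CPM at E-L 38. In summer berries it had 16.1, 13.1 and 8.71 CPM at E-L 35, 3.86, 17.4 and 4.40 CPM at E-L 36, and 1.37, 1.58 and 1.37 CPM at E-L 38. Winter libraries at E-L 38 were high but spread widely, and summer libraries at E-L 38 were all low. The log2 change was 5.21 (SE 0.99) in winter and -3.13 (SE 1.17) in summer.

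VIT_208s0040g00920 was low in counts outside the ripe winter berry. It had 1, 2 and 2 counts in winter libraries at E-L 35 and 21, 221 and 88 counts at E-L 38, where the summed counts of 330 and 5 gave a ratio of 67.2 after scaling (exact binomial 95% interval 28.5 to 208, for counting error only). In summer it had 7, 8 and 2 counts at E-L 35 and 0 in every library at E-L 38, a level at least 1.47-fold lower with 3 counts per library standing in for 0. Ripe winter berries were at least 35.3-fold higher than ripe summer berries at this locus. At E-L 36 it had 1.86, 3.13 and 1.05 CPM in winter and was at 0 in all 3 summer libraries.

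VIT_211s0016g02920 fell in winter and rose in summer. In winter berries it had 18.1, 18.7 and 13.3 CPM at E-L 35, 16.8, 18 and 22.0 CPM at E-L 36, and 7.94, 9.98 and 6.52 CPM at E-L 38. In summer berries it had 6.14, 8.19 and 9.91 CPM at E-L 35, 117, 64.9 and 73.7 CPM at E-L 36, and 196, 118 and 149 CPM at E-L 38. The crops did not overlap at any stage and changed places between E-L 35 and E-L 36. The log2 change was -1.03 (SE 0.35) in winter and 4.25 (SE 0.35) in summer, and at E-L 36 the winter berries were lower by the test (log2 ratio -2.17, edgeR adjusted p = 4.36e-06).

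VIT_208s0007g06060 fell in winter and rose in summer, although only 47.2% of libraries gave it a whole-number count, so its reads were partly shared with similar genes. In winter berries it had 17.8, 17.0 and 19.2 CPM at E-L 35, 11.9, 12.9 and 3.26 CPM at E-L 36, and 1.26, 7.55 and 2.33 CPM at E-L 38. In summer berries it had 4.90, 4.21 and 2.40 CPM at E-L 35, 0.341, 5.15 and 1.29 CPM at E-L 36, and 42.2, 19.5 and 35.0 CPM at E-L 38. The summer rise came after E-L 36, and at E-L 36 the winter berries were still higher by the test (log2 ratio 2.02, edgeR adjusted p = 0.0153). The log2 change was -2.22 (SE 0.60) in winter and 3.07 (SE 0.59) in summer. Among the 10 largest reversals in each direction that met these criteria, the E-L 36 difference was called along the ripening difference for 7 winter-rising and 7 winter-falling genes. These shares were near those of the whole classes (74.3% and 68.9%), against 21.0% called higher and 21.6% called lower among all tested genes. VIT_208s0007g06060 and 1 other of the 10 winter-falling genes (log2 ratio 0.82, edgeR adjusted p = 0.0252) were called higher in winter.

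Over all 14 lists, 126 of 138 loci were tested, and the crop difference of ripening was higher at 14 and lower at 6, or 20 of 126 against 27.1% of all tested genes. With near-identical replicates summed 7 loci were called, and with the 12 libraries fitted alone 47. Only the light, NAC and heat shock loci described above were in the reversing class. The lists came from recalled families and were chosen with earlier results of these data known. No list count stands above the background by a test, since none was made.

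The 8 tested loci of carotenoid and abscisic acid metabolism, the routes to pigments, aroma and a ripening hormone, held 2 higher calls and 0 lower, with a median difference of 0.36 against -0.01 for all genes. The 2 calls became 1 without summer replicate 1 at E-L 35, winter replicate 1 at E-L 35 or winter replicate 2 at E-L 38, with near-identical replicates summed and on both FPKM scales. VIT_202s0087g00910 of this list had 6.34, 4.42 and 5.09 CPM at E-L 35, 22.9, 24.1 and 12.5 CPM at E-L 36, and 39.6, 23.9 and 57.9 CPM at E-L 38 in winter. In summer it had 3.36, 2.88 and 2.18 CPM, 1.25, 1.92 and 2.25 CPM, and 1.67, 1.90 and 1.05 CPM at these stages. It rose in winter (log2 change 2.94, SE 0.39, edgeR adjusted p = 8.09e-07), while the summer value of -0.89 (SE 0.51) did not pass (adjusted p = 0.187). The difference between crops was 3.83 (SE 0.64, edgeR adjusted p = 5.88e-05).

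The flavonoid and anthocyanin list, which leads to pigments, flavonols and tannins, held 1 higher and 1 lower call among 23 tested loci, with a median of -0.11, and 5 calls on log2(FPKM + 1). VIT_216s0039g02230 averaged 155 ± 4.12, 96.4 ± 16.0 and 128 ± 7.09 CPM at E-L 35, E-L 36 and E-L 38 in winter (SD, n = 3), against 44.8 ± 3.01, 70.7 ± 2.33 and 144 ± 9.96 CPM in summer. The summer rise took it to the winter level at harvest, and the difference in ripening was -1.96 (SE 0.23, edgeR adjusted p = 5.33e-07). VIT_218s0001g03430 rose in both crops, with log2 changes of 2.15 (SE 0.20) in winter and 1.04 (SE 0.20) in summer and a difference of 1.11 (SE 0.28, edgeR adjusted p = 0.00428). That call was lost with near-identical replicates summed (edgeR adjusted p = 0.0884), the highest of 20 alternatives, whose lowest was 0.000228.

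Sugar transport and cleavage loci, which load and split sucrose and move hexoses, held 3 higher and 1 lower call among 9, with a median of 0.09, which became 2 calls without summer replicate 1 at E-L 38 and 0 with near-identical replicates summed. VIT_218s0122g00850 fell in both crops, to 297 ± 81.8 CPM at E-L 38 in winter against 1450 ± 38.9 at E-L 35, and to 599 ± 57.7 CPM at E-L 38 in summer against 1280 ± 52.2 at E-L 35 (SD, n = 3). The winter decline was the steeper, with a difference of -1.20 (SE 0.35, edgeR adjusted p = 0.0114), and VIT_218s0001g08210 rose in winter with a difference of 0.44 (SE 0.13, adjusted p = 0.0138). Both calls were lost with near-identical replicates summed (edgeR adjusted p = 0.0896 and 0.139), where the alternatives of VIT_218s0122g00850 ran from 0.00051 to 0.0896. The call of VIT_218s0001g08210 was also lost without summer replicate 3 at E-L 35 (adjusted p = 0.0603) and on both FPKM scales (limma adjusted p = 0.218 and 0.219), with a lowest adjusted p of 0.00388 over its 20 alternatives.

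MYB transcription factors, regulators of flavonoid and stilbene genes among others, held 2 higher and 1 lower call among 9, with a median of 0.60, and 1 call with near-identical replicates summed or on log2(FPKM + 0.1). VIT_206s0004g00570 averaged 25.2 ± 0.267, 36.0 ± 3.21 and 52.9 ± 4.01 CPM along the 3 stages in winter, against 25.6 ± 1.07, 33.5 ± 2.18 and 33.4 ± 4.02 CPM in summer (SD, n = 3). The crops were level at E-L 35 and separate at E-L 38, with a difference of 0.68 (SE 0.15, edgeR adjusted p = 0.00112). VIT_202s0033g00410 fell in winter, to 26.4 ± 0.839 CPM at E-L 38 against 58.2 ± 4.72 at E-L 35, and was at 22.0 ± 3.91 and 19.5 ± 3.02 CPM at E-L 38 and E-L 35 in summer, where no change was called. Its difference of -1.31 (SE 0.39, edgeR adjusted p = 0.0154) was lost with near-identical replicates summed (adjusted p = 0.115) and on log2(FPKM + 0.1) (limma adjusted p = 0.185), with a lowest of 1.97e-05 over the 20 alternatives. None of its counts were whole numbers in most libraries, so reads were shared with similar genes.

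Both tested terpenoid loci, of the route to muscat aroma, were called higher, with a median of 0.94, and 1 was called with near-identical replicates summed. VIT_205s0020g02130 averaged 74.3 ± 4.09, 52.6 ± 0.695 and 60.8 ± 10.9 CPM along the stages in winter and 69.9 ± 3.87, 22.1 ± 5.19 and 27.0 ± 3.26 CPM in summer (SD, n = 3), with a difference of 1.08 (SE 0.23, edgeR adjusted p = 0.000827). It fell in summer, whereas the winter value of -0.29 (SE 0.16) did not pass (adjusted p = 0.153). Its counts were whole numbers in 25% of libraries. Neither terpenoid locus had mostly whole-number counts, so reads were shared with similar genes. Of 3 cell wall loci, which soften the berry, 1 was called higher: VIT_213s0067g02930 fell in both crops, less in winter, with a difference of 1.22 (SE 0.38, edgeR adjusted p = 0.0178). The call was lost with near-identical replicates summed (adjusted p = 0.147) and without summer replicate 3 at E-L 38 (adjusted p = 0.0541), with a lowest of 0.000984 over the 20 alternatives.

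Pathogenesis-related loci, abundant berry proteins of the thaumatin and related types, held 2 higher calls among 8, with a median of 1.44, which became 1 without summer replicate 1 at E-L 38 and 0 with near-identical replicates summed. VIT_202s0025g04280 had a difference of 1.56 (SE 0.41, edgeR adjusted p = 0.00589), which was lost with near-identical replicates summed (adjusted p = 0.097) and on log2(FPKM + 0.1) (limma adjusted p = 0.0785), with a lowest of 0.00295 over the 20 alternatives. Its counts were never mostly whole numbers, so reads were shared with similar loci. Neither lipoxygenase locus nor the ethylene locus was called by edgeR (0 of 2 and 0 of 1). At an unadjusted p under 0.05 these counts were 1 and 0, and DESeq2 called 1 and 0.

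Phenylpropanoid entry loci start from phenylalanine and feed both the flavonoid and the stilbene branch, and stilbene synthases produce resveratrol. Of 38 stilbene synthase loci, 10 rose and 0 fell in winter, and 6 rose and 0 fell in summer, against 22.6% upward in winter and 16.4% in summer among all tested genes. Of the same 38, 0 were called in the crop difference of ripening by edgeR, with 1 at an unadjusted p under 0.05 and 3 called by DESeq2, and their median was -0.35. Their summed level was 75.8, 73.3 and 69.3 CPM at E-L 35, 759, 709 and 329 CPM at E-L 36, and 126, 368 and 163 CPM at E-L 38 in winter. In summer it was 15.2, 15.8 and 12.9 CPM at E-L 35, 157, 32.8 and 63.1 CPM at E-L 36, and 80.1, 59.4 and 45.5 CPM at E-L 38. The winter sums were above the summer sums at every stage, without overlap between the libraries.

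Only 3 of 16 phenylpropanoid entry loci had mostly whole-number counts, so reads of the others were shared with similar genes. Of the 16, 7 rose and 0 fell in winter and 7 rose and 0 fell in summer, beside the same backgrounds. The difference was called lower at 1 of them, against 13.8% of all tested genes. That locus, VIT_206s0004g08150, had 251 ± 34.0 CPM at E-L 38 and 215 ± 10.4 at E-L 35 in winter, against 94.0 ± 6.84 CPM at E-L 38 and 38.4 ± 2.48 at E-L 35 in summer (SD, n = 3). Its difference of -1.07 (SE 0.35, edgeR adjusted p = 0.0236) was lost with near-identical replicates summed (adjusted p = 0.125). It was also lost without summer replicate 3 at E-L 35, summer replicate 2 at E-L 38 or winter replicate 1 at E-L 38 (adjusted p = 0.0536, 0.0516 and 0.0639), with a lowest of 9.74e-06 over the 20 alternatives.

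Victoria, the other cultivar, was grown and sampled in the same design. Its values did not enter the contrasts that chose the genes, although its libraries share the filter and the estimate of spread. There the crop difference of ripening was called in the same direction for 227 of the 338 winter-rising genes (67.2%), against 19.9% called higher among all tested genes, and in the opposite direction for 14. For the 318 winter-falling genes it was called in the same direction for 239 (75.2%), against 22.9% called lower among all tested genes, and in the opposite direction for 1. Non-reversing genes called in Muscat Superior had lower shares in Victoria, 55.2% of 2268 higher and 60.7% of 2415 lower. Their differences in Muscat Superior were also smaller, with median sizes of 0.78 and 1.20 against 1.16 and 1.64 for reversing genes. The part of size in these shares was not tested. Over both classes the share called in the same direction was 71.0%, and 70.7% without the summer Victoria libraries that stood apart. With each cultivar fitted to its own 12 libraries alone, it was 58.0% of 616 winter-rising genes, against 18.1% called higher among all genes tested there, and 67.6% of 652 winter-falling genes, against 22.0% called lower. The crops of Victoria were grown in the same seasons, so season is shared and not replicated between cultivars. The split of the 8439 Victoria calls (42.8% of tested genes) moved with the scale, from 46.5% higher on counts to 61.8% and 60.1% on log2(FPKM + 1) and log2(FPKM + 0.1), where medians over all genes were 0.16 and 0.18.

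A subset of these genes reversed in Victoria too. Both crop changes were called and opposite, in the same sense as in Muscat Superior, for 86 winter-rising genes in Victoria (25.4%), against 3.83% of all tested genes, and for 130 winter-falling genes (40.9%), against 4.22%. These are 11.4% of the 755 and 15.6% of the 832 genes that reversed in Victoria in each direction, where 8.04% of tested genes reversed. The median difference in Victoria was 0.72 for the winter-rising and -1.27 for the winter-falling class. The winter change was called in the same direction in Victoria for 235 (69.5%) and 206 (64.8%) genes, and the summer change for 117 (34.6%) and 193 (60.7%). Among all tested genes of Victoria the winter change was called at 51.6% (24.7% upward, 26.9% downward) and the summer change at 42.9% (20.8% upward, 22.1% downward). In the winter-rising class 42 genes had the opposite summer change in Victoria, where the class median in summer was -0.14.

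**Figure D4:**
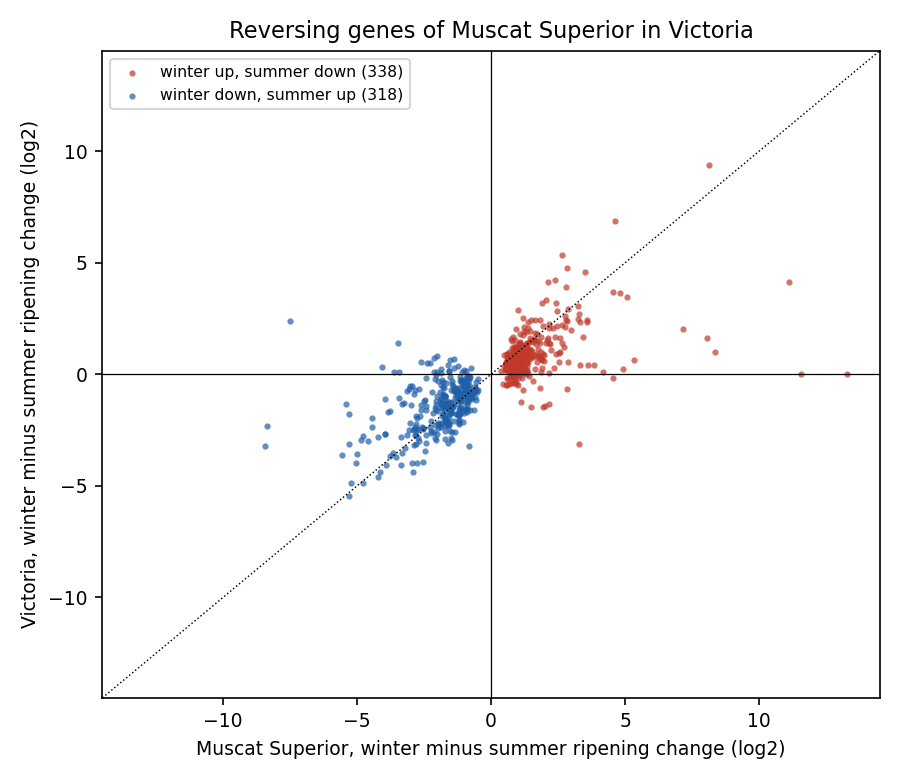
Winter minus summer ripening change (log2) of the 656 reversing genes, Muscat Superior on the x axis and Victoria on the y axis, winter-rising genes in red and winter-falling genes in blue. The dotted line marks equal difference. Most points have the same sign in both cultivars, with medians of 0.72 and -1.27 in Victoria.

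The difference between the cultivars was itself tested. Over all genes 2499 (12.7%) had a crop difference of ripening that differed between Muscat Superior and Victoria, and 876 with near-identical replicates summed. Higher values in Muscat Superior made up 55.5% of these calls on counts, but 25.6% and 26.2% on log2(FPKM + 1) and log2(FPKM + 0.1), where medians over all genes were -0.24 and -0.29. Among the winter-rising genes 93 had the larger difference in Muscat Superior and 9 in Victoria, together 30.2%, against 7.02% called higher and 5.64% called lower among all tested genes. Among the winter-falling genes these were 53 and 11, together 20.1%. The genes were chosen on Muscat Superior values, which enter this difference, so these counts are descriptions.

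The listed reversing loci were also called in Victoria, each in the same direction. VIT_204s0008g05210 had a crop difference of -1.29 (SE 0.32, edgeR adjusted p = 0.00197), VIT_208s0007g07670 of -2.87 (SE 0.37, adjusted p = 8.43e-07) and VIT_204s0008g01110 of 2.16 (SE 0.57, adjusted p = 0.00322). The difference between the cultivars passed for none of them (edgeR adjusted p = 0.655, 0.366 and 0.873), with values of -0.38 (SE 0.47), 0.76 (SE 0.52) and 0.30 (SE 0.82). VIT_211s0016g02920 had -5.44 (SE 0.47, adjusted p = 1.6e-09) in Victoria, where its mean at E-L 38 was 6.52 ± 3.70 CPM in winter and 132 ± 34.5 CPM in summer (SD, n = 3).

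For VIT_209s0002g00580 the difference between the cultivars was 7.35 (SE 2.25, edgeR adjusted p = 0.0298). This locus was chosen for its large difference in Muscat Superior, which enters that value, so the p-value is a description. In Victoria it had 1.91, 3.53 and 75 CPM at E-L 35, 197, 215 and 248 CPM at E-L 36, and 72.6, 76.4 and 77.9 CPM at E-L 38 in winter. It stayed between 0.217 and 7.31 CPM in the 9 summer libraries of Victoria. The Victoria difference of 0.99 (SE 1.60) did not pass (adjusted p = 0.651), with 1 of the 3 winter libraries at E-L 35 far above the others. Victoria winter berries were high at E-L 36 and E-L 38, while those of Muscat Superior had all libraries high only at E-L 38. VIT_208s0007g06060 had -1.79 (SE 0.93, adjusted p = 0.123) in Victoria, and its summer libraries there stayed at 1.53 to 2.11 CPM at E-L 38.

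For the stilbene synthase list the cultivars differed at many loci. In Muscat Superior 0 of 38 loci had a called crop difference of ripening, against 36 called lower in Victoria. Among all tested genes, 27.1% were called in Muscat Superior (13.8% lower) and 42.8% in Victoria (22.9% lower). The difference between cultivars itself passed for 17 of the 38 loci, all higher in Muscat Superior, against 12.7% of all tested genes. The phenylpropanoid entry list had 1 of 16 loci called lower in Muscat Superior, against 15 in Victoria, and 8 passed the test between cultivars, all higher in Muscat Superior. Median differences between the cultivars were 6.52 and 3.79 on the log2 scale for these lists, against 0.00 over all tested genes. Reads of stilbene synthase loci were shared among near-identical copies, so counts of single loci are uncertain. Only 3 of the 16 phenylpropanoid entry loci had mostly whole-number counts. Reads of the others were shared with similar genes, so their calls are not independent.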

How the data were processed

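RNA was measured in 36 libraries of grape berries, of which 12 form the comparison and 12 are of Victoria, a second cultivar in the same model. Per the file headers, the authors' deposited table of each library gives expected counts (estimated reads per gene, with fractions where reads were shared), FPKM (fragments per kilobase, scaled to library size) and transcript length. Alignment used Bowtie, without a version, per the submitters' processing notes. For the genome build, annotation and counter, nothing was stated in the sources used here. A gene without a line was set to 0, and expected counts were rounded to whole numbers.

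The test was edgeR's robust quasi-likelihood F test (edgeR 4.0.16, R 4.3.3) on TMM-scaled counts, in a model of 12 group means over the 36 libraries that left 24 residual degrees of freedom. filterByExpr kept 19736 of 28119 genes. Benjamini-Hochberg adjusted p below 0.05 called a gene. All adjusted p-values are from this test unless another tool is named, and SE is the log2 change divided by the square root of F. A reversing gene had the difference and both crop changes called, with opposite signs. At E-L 36 the share of a change covered used log2(CPM + 0.5), and a count was whole within 0.005.

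The 0 of 28119 identifiers that matched the supplied gene table left 16 lists by product name, among them seed, xylem, epidermis and phloem markers, without a result. In the 14 locus lists a digit 2 was inserted into each identifier, an assumption. The members and lists were chosen with earlier results of these data known. Named genes are list members with the lowest p in each direction and reversing genes with the largest difference among those with separated replicates and a highest group mean of at least 10 CPM.

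Alternatives were DESeq2 1.42.0, limma 3.58.1 on log2(FPKM + 1) and log2(FPKM + 0.1), no filter, the comparison's own libraries, a replicate block, near-identical replicates summed (chi-square per degree of freedom below 2) and each replicate left out. The fitting code was tested on simulated counts.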

Additional observations from a re-analysis of the deposited data

Results flagged for a closer look

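Effects that differed between groups by a test of the difference itself are listed here as values. Ripening differed between winter and summer crops of Muscat Superior at 5339 genes. The crop difference of ripening differed between Muscat Superior and Victoria at 2499 genes.

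The lists were chosen with earlier results of these data known, and stilbene synthase loci and most phenylpropanoid entry loci share reads. The difference between the cultivars passed for 17 of 38 stilbene synthase loci and 8 of 16 phenylpropanoid entry loci. It also passed for 5 of 23 flavonoid and anthocyanin loci and 4 of 9 MYB loci, against 12.7% of all tested genes. All were higher in Muscat Superior except 2 of the flavonoid loci.

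Named loci were chosen on their Muscat Superior values, which enter the difference between the cultivars, so their p-values here are descriptions. Among them, Muscat Superior minus Victoria was 2.90 on the log2 scale for VIT_206s0004g08150 (edgeR adjusted p = 0.000432). It was -3.77 for VIT_218s0001g03430 (adjusted p = 2.98e-06), which fell in summer berries of Victoria and rose in those of Muscat Superior. It was -1.77 for VIT_216s0039g02230 (adjusted p = 0.0011) and 1.18 for VIT_205s0020g02130 (adjusted p = 0.0158), both without a called crop difference in Victoria. VIT_202s0087g00910 had -3.07 (adjusted p = 0.0438), VIT_213s0067g02930 had 2.52 (adjusted p = 0.00254) and VIT_209s0002g00580 had 7.35 (adjusted p = 0.0298). For VIT_209s0002g00580, winter libraries of Victoria at E-L 35 were uneven, at 1.91, 3.53 and 75 CPM. VIT_205s0020g02130 had whole-number counts in 25% of libraries, so its reads were shared with similar genes.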

How the results depend on the processing

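With near-identical replicates summed, 2594 genes differed in ripening between the crops, 5331 changed in winter, 266 reversed and 876 differed between the cultivars. That fit leaves winter E-L 35 with 1 library, assumed to vary like the other groups. Fitted to their own libraries alone, 1268 genes reversed and the E-L 36 crop difference had 5533 genes. Of those 1268, 62.9% were called alike in Victoria, 24.4% reversed there too and 52.8% were called alike at E-L 36. Requiring at least 2-fold change in each crop left 109 reversing genes. The cause of these moves was not tested. The other 218 of 225 recomputed comparison results did not move by such amounts.

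Leaving out each replicate gave 4462 to 5074 genes for the difference between crops, 7841 to 8673 for winter, 5242 to 5723 for summer and 481 to 606 reversing. It gave 7560 to 8200 for Victoria, 1977 to 2625 between cultivars and 7293 to 7818 at E-L 36. Of the reversing genes, 67.0% to 74.3% were called alike in Victoria, 28.1% to 36.8% reversed there too and 63.1% to 73.9% were called alike at E-L 36. Other tools gave 704 reversing genes (DESeq2, 634 of them shared with the 656), 607 (log2(FPKM + 1), 493 shared) and 593 (log2(FPKM + 0.1), 482 shared). Without a filter there were 544, of which 543 were shared, and without the summer Victoria libraries that stood apart, an alternative chosen after seeing the data, there were 847, of which 655 were shared.

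Deviations of samples with the same replicate number were almost uncorrelated (correlations of -0.043 to 0.044 over 18 pairs). Between the winter stages, same-number pairs had 0.039, 0.041 and 0.028, and pairs of different number had -0.035 to -0.006. These values cannot decide whether the numbers pair samples, since deviations at winter E-L 35 may be technical and the labels do not name vines. With the replicate number as a block, 607 genes reversed, 591 of them among the 656, and 5094 differed between the crops. The block also gave 8970 genes in winter, 6504 in summer, 8217 in Victoria, 2288 between cultivars and 8137 at E-L 36.

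For the named loci, 344 of 360 recomputed differences kept their call and direction, 16 lost the call and 0 reversed. Without summer replicate 1 at E-L 38, calls in the NAC, light and lipoxygenase lists were 2, 2 and 1, where all libraries gave 1, 1 and 0. The NAC list also had 2 without winter replicate 1 at E-L 38, and the stilbene list had 1 without summer replicate 2 at E-L 38. Low depth limits genes near 3 counts, or 0.214 to 0.349 CPM per library. This limit covers counting error only.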

Other observations

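VIT_213s0067g02930 of the cell wall list had crop differences of opposite sign in the cultivars. Its log2 value was 1.22 (SE 0.38, edgeR adjusted p = 0.0178) in Muscat Superior and -1.30 (SE 0.38, adjusted p = 0.0069) in Victoria. At E-L 35 it had 1380, 1340 and 1250 CPM in winter berries of Muscat Superior against 3070, 2910 and 2520 CPM in summer berries, while Victoria had 2090, 1850 and 1590 CPM in winter against 1510, 1330 and 1280 CPM in summer. The order of the crops at E-L 35 thus differed between the cultivars, without overlap in either. At E-L 38 the libraries of Muscat Superior overlapped between the crops, at 444, 471 and 317 CPM in winter against 399, 439 and 297 CPM in summer.

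VIT_202s0087g00910 of the carotenoid and abscisic acid list rose in winter in both cultivars. Its summer change was -0.89 in Muscat Superior (SE 0.51, edgeR adjusted p = 0.187), which did not pass, and -2.69 in Victoria (SE 0.60, adjusted p = 0.00067), which did, and the difference of these summer changes was not tested. In Victoria it had 3.01, 4.01 and 1.99 CPM at E-L 35, 15.8, 14.7 and 14.1 CPM at E-L 36, and 74.7, 43.5 and 46.6 CPM at E-L 38 in winter berries. In summer berries of Victoria it had 1.14, 4.03 and 5.43 CPM, 0.489, 2.33 and 1.21 CPM, and 0.825, 0.356 and 0.382 CPM at these stages.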
